A study of Homo sapiens with 2 samples.

Results

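RAB proteins are small GTPases that mark the membranes of the secretory and endocytic pathways, and most TBC1D proteins carry the TBC domain, which in many of them speeds GTP hydrolysis by RABs. The members were the probe sets whose single annotated gene symbol is RAB followed by a number, with an optional letter A to C, or TBC1D followed by a number. There were 95 of them, 60 RAB and 35 TBC1D, each for a different gene, among 17709 named probe sets for 17687 genes. The pattern leaves out names such as RAB3D and takes in records that encode no RAB regulator: the antisense RNA TBC1D22A-AS1, the pseudogene TBC1D3P5 and the pseudogene transcript TBC1D3P1-DHX40P1.

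Signal was measured on 1 array for each of 2 lines of MKN1, a long-established line from a human gastric carcinoma. The first line overexpressed RHOA wild-type and the second RHOA Y42C, a tyrosine-to-cysteine substitution found in gastric cancer, each from the vector pBABE-puro under puromycin selection. Both lines therefore carry a RHOA vector, and parental or empty-vector cells were not analysed here, nor do the labels say whether a line is a pool or 1 clone. With 1 array per line there is no replicate error and no test, so every difference compares these 2 lines only. In bulk RNA, fewer cells with a transcript and less of it per cell cannot be told apart.

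A RAB switches between a GTP-bound form, which recruits motors, tethers and other effectors to its membrane, and a GDP-bound form. Exchange factors turn it on, GTPase-activating proteins (GAPs) such as those with a TBC domain turn it off, and GDI extracts the GDP form from the membrane for another round. The C-terminal lipid anchor is added by an escort protein together with RAB geranylgeranyl transferase. In epithelial cells this cycle sorts integrins, cadherins and growth factor receptors between the surface, endosomes and lysosomes.

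All differences are Y42C minus wild-type on the log2 scale, taking the deposited values as log2 from their range. A gene counted as above the minimum if its signal on either array, or both, reached a floor, the 95th percentile of 348 olfactory receptor genes on that array, which was 5.17 for wild-type and 5.14 for Y42C. Olfactory receptors serve as a background because gastric cells are not known to express them, and their medians were 3.60 and 3.74. RHOA itself read 16.47 and 16.30, which cannot separate mutant from wild-type RNA. Of the epithelial markers, EPCAM, KRT8, KRT18 and KRT19 were above the minimum on both arrays and CDH1 (3.92 and 3.86) was not, and 0 of 5 gastric markers reached it on either array. Markers of other cell types were at mixed levels: 2 of 4 leukocyte markers were above the minimum on the wild-type array and 4 on the Y42C array, 2 of 4 fibroblast markers on each, and 3 of 5 endothelial markers on each. Within a cell type these markers differed in both directions. Among leukocyte markers CD14 differed by -1.78 and CD68 by -0.51, PTPRC by 0.78 and CD3E by 0.97. PTPRC and CD3E were below the minimum on the wild-type array. Among fibroblast markers LUM differed by 2.28 and COL1A1 by -0.21. DCN (4.37 and 4.89) and PDGFRA (4.77 and 4.29) were below the minimum on both arrays and gave no usable difference. Endothelial markers ran from -0.07 (PECAM1) to 0.80 (VWF). Their part in the results was not tested.

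Most RAB genes read lower in the Y42C line and most TBC1D genes read higher. Of 51 RAB genes above the minimum, 8 were at least 2-fold lower and 1 was at least 2-fold higher. That is 15.7% lower and 1.96% higher, beside 9.80% and 7.46% of all 11802 genes above the minimum. Of 31 TBC1D genes, 4 passed 2-fold on the higher side (12.9%) and 2 on the lower (6.45%). One of the 4, TBC1D10B, was below the minimum on the wild-type array, and the count was 3 with its value raised to the minimum. The median difference was -0.22 over RAB genes and 0.26 over TBC1D genes, against -0.07 over all genes. Leaving out near-identical copies and non-coding records by name gave medians of -0.21 and 0.185, against -0.08. Below zero were 38 RAB genes (74.5%) and 10 TBC1D genes (32.3%), beside 54.2% of all genes. The TBC1D genes above zero include 3 that reached the minimum on the Y42C array only (TBC1D10B, TBC1D26 and TBC1D28). They also include TBC1D3, TBC1D3L and TBC1D3P1-DHX40P1, which may share probes. With the minimum at the 99th percentile of olfactory receptor genes, 34.6% of 26 TBC1D genes were below zero, beside 56.3% of all genes. The shares past 2-fold rest on counts of 1 to 8 genes.

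The scaling of the arrays matters for the RAB count. Centring each array on its median moved the median of all genes by 0.11, from -0.07 to 0.04, and the share of higher genes among all genes past 2-fold from 43.2% to 55.6%. With centring, the 2-fold threshold left 4 RAB genes on the lower side and 1 on the higher, beside 7.77% of all genes lower and 9.74% higher. The RAB share on the lower side was then 7.84%, at the share over all genes. Of the TBC1D genes 6 were then on the higher side (19.4%) and 1 on the lower (3.23%). The share of RAB genes below zero was then 60.8%, beside 47.6% of all genes, and that of TBC1D genes stayed at 32.3%.

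**Figure D1:**
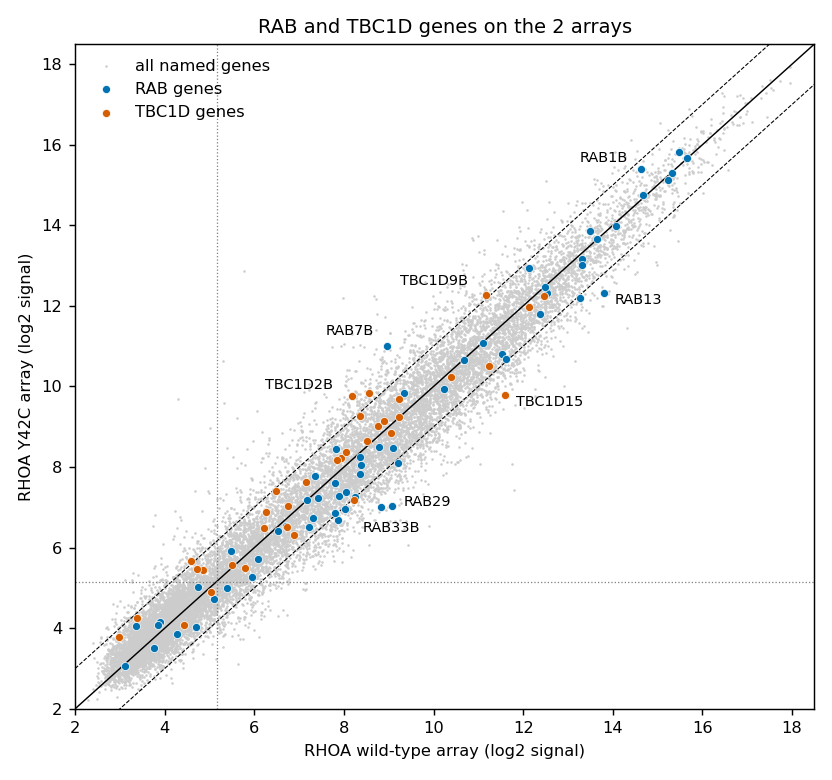
Log2 signal on the RHOA wild-type array (x axis) and the RHOA Y42C array (y axis), 1 point per gene, with all named genes in grey, 60 RAB genes in blue and 35 TBC1D genes in orange. The solid line marks equal signal, dashed lines 2-fold, and dotted lines the minimum of each array (5.17 and 5.14). RAB7B lies farthest above the 2-fold band among the members, and RAB29, RAB33B and TBC1D15 lie farthest below it.

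The most negative and the most positive RAB difference belonged to neighbours on chromosome 1. In the RefSeq gene table, 3 protein-coding genes separate RAB29 from RAB7B. Both promoter windows are shown because these genes differed in opposite directions, followed by those of TBC1D15 and TBC1D2B, the most negative and most positive TBC1D genes. Each is the 250 bases before the RefSeq start on GRCh38.p14, 5′ to 3′ on the gene's strand, matched by Entrez gene identifier and not by any coordinate of the array files, which name no build. Capitals mark matches on either strand to CACGTG (the E-box core of the lysosomal CLEAR element), GGGCGG (the GC box bound by SP and KLF factors), CCAAT, or TGANTCA (the AP-1 site). The windows are chr1:205775483-205775732 (minus strand) for RAB29, chr1:206003396-206003645 (minus strand) for RAB7B, chr12:71839509-71839758 (plus strand) for TBC1D15 and chr15:78077712-78077961 (minus strand) for TBC1D2B.
RAB29: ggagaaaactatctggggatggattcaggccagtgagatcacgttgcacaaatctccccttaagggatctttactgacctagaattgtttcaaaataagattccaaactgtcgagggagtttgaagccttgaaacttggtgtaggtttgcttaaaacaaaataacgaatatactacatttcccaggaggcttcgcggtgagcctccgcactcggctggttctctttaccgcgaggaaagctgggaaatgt
RAB7B: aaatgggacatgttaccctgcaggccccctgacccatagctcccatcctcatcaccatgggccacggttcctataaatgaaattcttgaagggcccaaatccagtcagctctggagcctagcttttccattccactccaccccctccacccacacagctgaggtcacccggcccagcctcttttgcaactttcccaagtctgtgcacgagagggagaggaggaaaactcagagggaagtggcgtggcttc
TBC1D15: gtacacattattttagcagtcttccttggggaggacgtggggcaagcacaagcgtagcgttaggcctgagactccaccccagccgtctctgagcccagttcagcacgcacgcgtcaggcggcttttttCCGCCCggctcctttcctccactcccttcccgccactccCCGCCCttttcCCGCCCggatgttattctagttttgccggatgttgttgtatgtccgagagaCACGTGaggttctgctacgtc
TBC1D2B: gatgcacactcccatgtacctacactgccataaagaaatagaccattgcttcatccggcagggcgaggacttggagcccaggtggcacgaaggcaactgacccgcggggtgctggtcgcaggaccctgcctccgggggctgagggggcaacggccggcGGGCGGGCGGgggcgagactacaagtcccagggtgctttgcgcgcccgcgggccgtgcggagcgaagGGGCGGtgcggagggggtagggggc

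The windows of RAB29 and RAB7B held none of the 4 motifs, while that of TBC1D15 held a CACGTG and GC boxes and that of TBC1D2B held GC boxes. GC content was 45.2% for RAB29 and 55.6% for RAB7B, below the median of 64.8% over RAB promoters, and 58.0% and 69.2% for TBC1D15 and TBC1D2B. Promoters were listed for 74 of the 95 members, among them 42 RAB and 25 TBC1D genes above the minimum. A GC box stood in 35 of those 42 RAB windows (83.3%) and in 14 of the 25 TBC1D windows (56.0%), beside 66.4% of 9703 genes above the minimum and 42.3% of all 27305 promoters. CACGTG stood in 5 RAB (11.9%) and 7 TBC1D windows (28.0%), beside 8.93% and 6.49%. CCAAT stood in 10 RAB and 4 TBC1D windows, beside 35.1% and 33.0%, and TGANTCA in 2 and 0, beside 3.93% and 6.60%. Among the members past 2-fold, GC boxes stood in 4 of 5 windows of higher genes and 6 of 9 of lower genes. A match is a description of these letters and not a binding site.

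RAB29, which acts at the Golgi and at stressed lysosomes and recruits the kinase LRRK2, read 9.08 on wild-type and 7.04 on Y42C. It was 4.11-fold lower, the 61st most negative difference of 11802. RAB7B, which despite its name differs from RAB7A and directs traffic from late endosomes to the trans-Golgi network, read 8.96 and 11.01. It was 4.14-fold higher, the 104th most positive difference. On their own arrays RAB29 stood 5.48 and 3.30 above the olfactory receptor median, and RAB7B 5.36 and 7.28 above it. Between these neighbours, SLC41A1 differed by 0.55 (11.05 and 11.60), and PM20D1 and SLC26A9 were below the minimum on both arrays. Next to RAB29 on its outer side, NUCKS1 differed by -0.22 (13.72 and 13.50), and next to RAB7B, CTSE differed by 1.01 (10.20 and 11.21). The 2 members in this stretch thus differed in opposite directions, with genes beside them on both sides of zero.

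**Figure D2:**
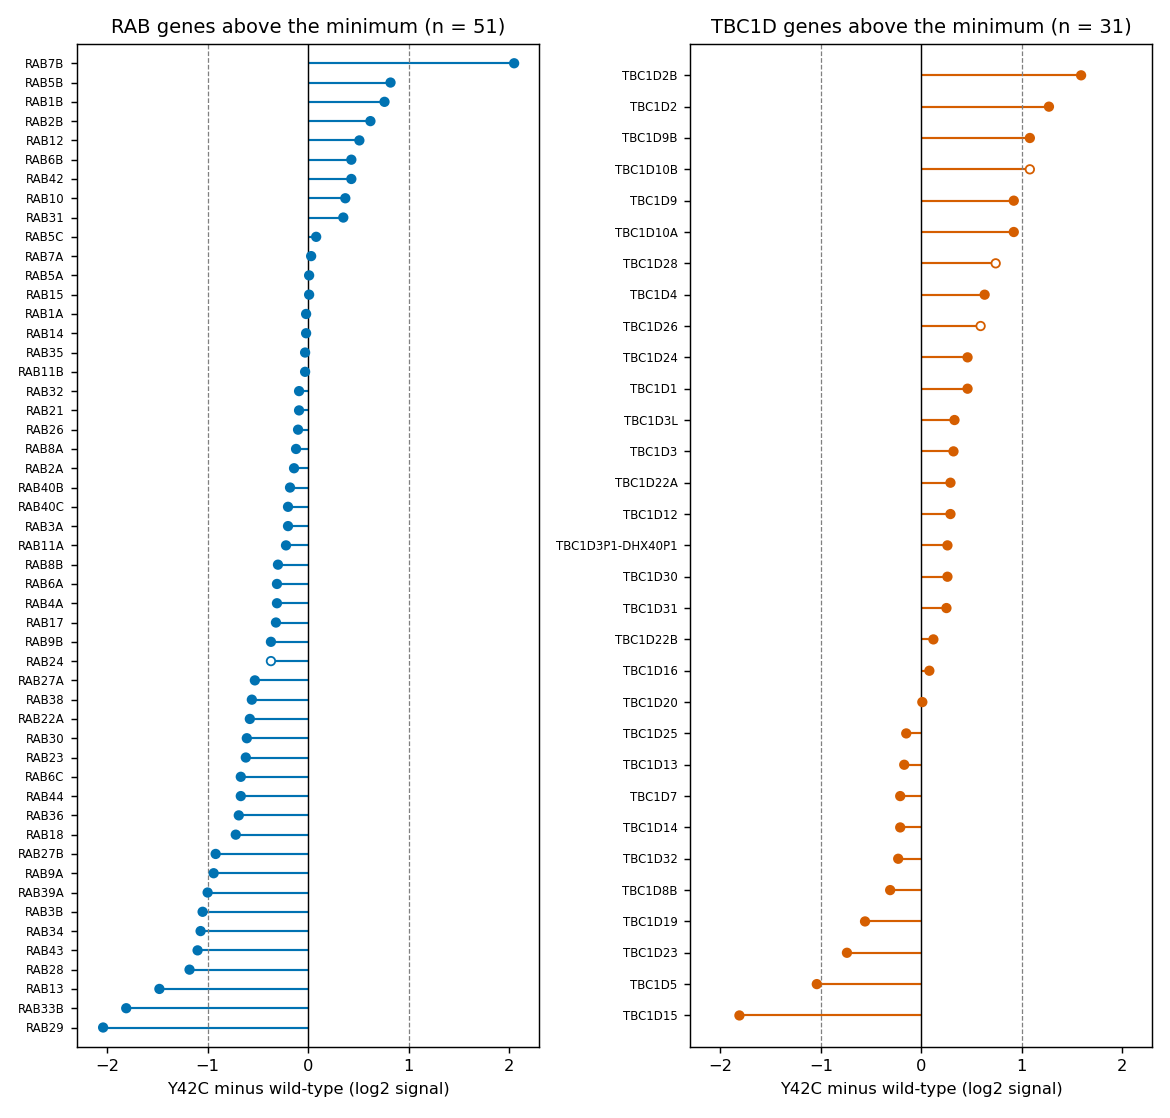
Y42C minus wild-type log2 signal for each of the 51 RAB (left) and 31 TBC1D genes (right) above the minimum, in order of the difference; dashed lines mark 2-fold. Open circles mark genes below the minimum on 1 of the arrays. RAB differences run from -2.04 for RAB29 to 2.05 for RAB7B, and TBC1D differences from -1.81 for TBC1D15 to 1.59 for TBC1D2B.

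RABs of the endoplasmic reticulum and Golgi had 13 of 16 genes above the minimum, and their median difference was -0.61. The group includes RAB6C, whose probes may not be separate from those of RAB6A, and the group mean was -0.41. Of the 13, 3 read lower by 2-fold or more (23.1%, beside 9.80% of all genes) and 0 higher (beside 7.46%). RAB33B, a Golgi RAB that binds the autophagy protein ATG16L1, read 8.82 and 7.01 and was 3.51-fold lower. RAB43, which acts in traffic at the Golgi, read 9.21 and 8.11 and was 2.14-fold lower. RAB34, needed for cilium formation and peri-Golgi lysosome positioning, read 13.26 and 12.19 and was 2.10-fold lower. These genes were the 3 past 2-fold, and with centring RAB43 (-0.99) and RAB34 (-0.96) fell just short of 2-fold. RAB36 (-0.69), RAB18 (-0.72), a RAB of the endoplasmic reticulum and lipid droplets, and RAB30 (-0.61) were lower by less.

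The RAB1, RAB2 and RAB6 genes lay on both sides of zero. RAB1A, which drives transport from the endoplasmic reticulum to the Golgi, read 15.31 and 15.29. Its close relative RAB1B read 14.63 and 15.39, a 1.69-fold higher signal. RAB2A read 13.31 and 13.17, and RAB2B read 7.83 and 8.45. RAB6A, the main RAB of retrograde Golgi transport, differed by -0.31 and RAB6B by 0.43. RAB6C, a retrogene copy of RAB6A whose probes may not be separate from it, differed by -0.67. Over all numbered RABs with an A and a B gene above the minimum, the B gene had the more positive difference in 7 of 10 pairs, among them RAB1 (by 0.78), RAB2 (by 0.76) and RAB6 (by 0.74). The A gene had it in RAB3, RAB8 and RAB27. This tally by letter was not planned, and with 1 array per line it was not tested.

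Early endosome RABs had 7 of 7 genes above the minimum, with a median of 0.01. Of these, 0 passed 2-fold in either direction, beside 9.80% of all genes lower and 7.46% higher. RAB5A, the organiser of early endosome fusion, read 13.65 and 13.66, and RAB5C 14.67 and 14.75. RAB5B read 12.12 and 12.94, a 1.77-fold higher signal. RAB31 differed by 0.35, and RAB21, which binds integrin tails, by -0.09. RAB4A, of fast recycling, differed by -0.31 and RAB22A by -0.58. The group spanned -0.58 to 0.82.

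RABs of recycling and polarized delivery had 10 of 11 genes above the minimum, with a median difference of -0.075. Of the 10, 1 read lower by 2-fold or more (10.0%, beside 9.80% of all genes) and 0 higher (beside 7.46%). The lower gene was RAB13, which serves tight junction assembly and surface delivery at the cell front. RAB13 read 13.80 and 12.32, 2.79-fold lower, and stood 10.20 and 8.59 above the olfactory receptor median. RAB8A (15.24 and 15.12), RAB10 (13.48 and 13.85) and RAB11A (12.54 and 12.32), the core of exocytic and recycling traffic, all differed by under 0.5. RAB8B (-0.30), RAB11B (-0.03), RAB14 (-0.02), RAB15 (0.01), RAB17 (-0.32) and RAB35 (-0.03) did as well. RAB13 apart, the group spanned -0.32 to 0.37. RAB25, an epithelial relative of RAB11, read 3.35 and 4.05, below the minimum on both arrays.

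RABs of late endosomes and lysosome-related organelles had 8 of 8 genes above the minimum, with a median of -0.37. Past 2-fold were 1 lower (RAB29) and 1 higher (RAB7B), 12.5% each, beside 9.80% lower and 7.46% higher over all genes. The counts depend on the assignment: RAB29, which also acts at the Golgi, was counted in this group only, and RAB39A was left out of it. RAB7A, the general late endosome RAB, read 15.65 and 15.68, a difference of 0.03. RAB7A and RAB7B were therefore 2.02 apart in their differences, the widest split of the 11 numbered RAB groups with at least 2 members above the minimum. RAB9A, which returns receptors from late endosomes to the Golgi, read 7.81 and 6.87, just short of 2-fold at 1.92-fold lower. RAB9B differed by -0.37, RAB38, of melanosomes and related organelles, by -0.56, and its relative RAB32 by -0.09. RAB24, linked to autophagy, read 5.38 and 5.01, the latter below the minimum, so it was at least 1.18-fold lower.

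**Figure D3:**
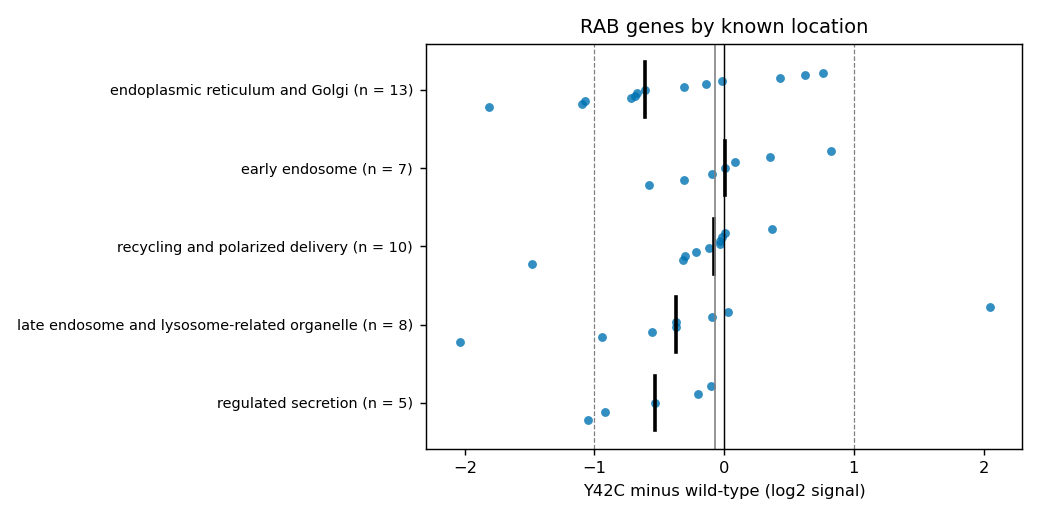
Y42C minus wild-type log2 signal of RAB genes above the minimum, grouped by known location, 1 point per gene; black bars are group medians, the grey line the median of all genes (-0.07) and dashed lines 2-fold. The early endosome median lies at 0.01, and the endoplasmic reticulum and Golgi median at -0.61. The latter group includes RAB6C, whose probes may not be separate from those of RAB6A.

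All 5 secretory RABs above the minimum were below zero as deposited, beside 74.5% of RAB genes and 54.2% of all genes. RAB26 (-0.10) lies within the 0.11 shift that centring makes. The group median was -0.53. Of the 5, 1 was at least 2-fold lower (beside 9.80% of all genes) and 0 higher (beside 7.46%). RAB3B, a RAB of regulated exocytosis, read 8.02 and 6.97 and was 2.07-fold lower, or -0.94 with centring. RAB27B, which docks secretory vesicles and exosome-bearing bodies, read 11.61 and 10.69, 1.89-fold lower and just short of 2-fold. Its relative RAB27A read 8.36 and 7.83. RAB3A differed by -0.20, and RAB3C and RAB37 were below the minimum on both arrays.

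RABs without a location assigned here had 8 of 11 genes above the minimum, 2 of them at least 2-fold lower and 0 higher. RAB28, a prenylated RAB of cilia and photoreceptors, read 7.86 and 6.68 and was 2.27-fold lower. RAB39A, of phagosomes and late endosomes but not assigned to the late endosome group here, read 8.25 and 7.25, exactly 2.0-fold lower. It is the member nearest the threshold, and it fell short of 2-fold with centring (-0.89). RAB23, a brake on Hedgehog signalling, differed by -0.62, RAB44, a large RAB, by -0.67, and RAB12 by 0.51. RAB40B, RAB40C and RAB42 differed by -0.18, -0.20 and 0.43. Below the minimum on both arrays were RAB20, RAB39B and RAB40A in this group, and RAB19, RAB33A and RAB41 among the Golgi RABs. With RAB25, RAB3C and RAB37 these make the 9 RAB genes that gave no usable difference.

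Among TBC1D genes, the close relatives within TBC1D2, TBC1D9 and TBC1D10, a grouping made after the values were seen, all read higher in the Y42C line where above the minimum. Above the minimum, 21 of 31 TBC1D genes and 5339 of 11802 genes read higher. TBC1D3 with TBC1D3L (0.32 and 0.33) and TBC1D22A with TBC1D22B (0.29 and 0.12) were higher by less. TBC1D2B, a GAP-family protein of endosomes, read 8.18 and 9.77 and was 3.01-fold higher. TBC1D2, also known as Armus, which inactivates RAB7 and links RAC1 to cadherin turnover, read 8.56 and 9.83 and was 2.41-fold higher. TBC1D9B, a GAP for RAB11A, read 11.18 and 12.26 and was 2.11-fold higher, and TBC1D9 read 8.35 and 9.27, 1.89-fold higher. TBC1D10A, which acts on RAB27A and RAB35, read 6.49 and 7.41, also 1.89-fold higher. TBC1D10B read 4.58 and 5.66, so its wild-type value was below the minimum and it was at least 1.40-fold higher. Its place among the 4 genes past 2-fold rests on that dim value. The 6 genes of the TBC1D2, TBC1D9 and TBC1D10 pairs spanned 0.92 to 1.59, and 1.03 to 1.70 with centring. They spanned 0.74 to 1.54 with a constant of 16 added to the linear signal. With TBC1D10B taken at its bound they spanned 0.49 to 1.59. That all stayed above zero carries no weight, because the pairs were chosen after the values were seen. The third TBC1D10 gene, TBC1D10C, which is best known in lymphocytes, read 4.44 and 4.08, below the minimum on both arrays.

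At the other end, TBC1D15, a GAP for RAB7 at lysosomes and mitochondria, read 11.60 and 9.79 and was 3.51-fold lower, the 121st most negative difference. TBC1D5, which inactivates RAB7 beside the retromer coat, read 8.23 and 7.19 and was 2.06-fold lower, or -0.93 with centring. TBC1D23, which bridges endosome-derived vesicles to golgins at the trans-Golgi network, read 11.24 and 10.50. TBC1D19 differed by -0.56. The proteins known to act on RAB7 thus differed in both directions, with TBC1D15 and TBC1D5 lower, TBC1D2 higher and RAB7A itself at 0.03.

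Other GAPs are set here beside the RABs they are known to act on. TBC1D20, the GAP for RAB1 at the endoplasmic reticulum, read 9.23 and 9.24, next to RAB1A at -0.02 and RAB1B at 0.76. TBC1D25, a GAP for RAB33B in autophagy, read 10.38 and 10.23, while RAB33B itself was 3.51-fold lower. TBC1D13, a GAP for RAB35, read 12.13 and 11.96, and RAB35 read 11.11 and 11.08. TBC1D14, which binds RAB11 and restrains autophagosome formation, read 12.46 and 12.25. TBC1D16, a GAP for RAB4A, read 5.50 and 5.58. TBC1D4 and TBC1D1, the AKT-regulated GAPs of GLUT4 traffic that act on RAB10 and RAB8A, differed by 0.63 (6.26 and 6.89) and 0.46 (9.23 and 9.69).

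TBC1D genes with other known functions also differed by less than 2-fold. TBC1D7, a subunit of the TSC complex that restrains mTORC1, read 9.05 and 8.84. TBC1D31, a centriolar satellite protein, and TBC1D32, of cilia, differed by 0.25 and -0.23, and TBC1D24, of synaptic vesicles, by 0.46. TBC1D12, TBC1D30, TBC1D22A and TBC1D22B differed by 0.29, 0.26, 0.29 and 0.12, and TBC1D8B by -0.31. The near-identical chromosome 17 copies TBC1D3, TBC1D3L and the pseudogene transcript TBC1D3P1-DHX40P1 differed by 0.32, 0.33 and 0.26 and may share probes, so they are not separate observations. TBC1D26 and TBC1D28, close copies as well, were below the minimum on the wild-type array and at least 1.21-fold and 1.23-fold higher. TBC1D10C, TBC1D21, TBC1D22A-AS1 and TBC1D3P5 were below the minimum on both arrays.

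Near the threshold, RAB39A (-1.0), TBC1D5 (-1.04), RAB3B (-1.05) and RAB34 (-1.07) lay just past 2-fold on the lower side, and RAB9A (-0.94) and RAB27B (-0.92) just short of it. On the upper side TBC1D9B (1.08) lay just past it, and TBC1D9 and TBC1D10A (each 0.92) just short. Of the 82 members above the minimum, 45 differed by under 0.5 (54.9%), close to the 51.6% of all genes.

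The other genes of the RAB cycle were taken from lists. The 31 exchange factors above the minimum had a median difference of -0.21, or -0.1 with centring. On the lower side 3 were past 2-fold (9.68%, close to the 9.80% of all genes). On the higher side 1 was (3.23%, beside 7.46%). With centring 2 were on the lower side and 1 on the higher, beside 7.77% and 9.74% of all genes. MADD, an exchange factor for RAB3 and RAB27, read 9.17 and 7.68 and was 2.81-fold lower. RGP1, the partner of RIC1 in the exchange factor for RAB6A, read 11.37 and 9.99 and was 2.60-fold lower, while RIC1 differed by -0.21. ANKRD27, which activates RAB21, RAB32 and RAB38, read 11.18 and 10.12 and was 2.08-fold lower. SBF1, a myotubularin-related protein with a DENN domain, read 6.92 and 8.18 and was 2.40-fold higher. Of the RABs that MADD acts on, RAB3B differed by -1.05, RAB27B by -0.92, RAB27A by -0.53 and RAB3A by -0.20. RAB6A differed by -0.31, RAB38 by -0.56, and RAB21 and RAB32 by -0.09 each. Over all RAB genes above the minimum 74.5% were below zero, and a link was not tested.

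All 14 TRAPP subunits, which form the exchange complexes for RAB1 and RAB11, were above the minimum, with a median of 0.07. TRAPPC3 was 2.07-fold lower (12.02 and 10.97), the only subunit past 2-fold (7.14%, beside 9.80% of all genes lower and 7.46% higher). With centring the median of the 14 was 0.18. In either direction 0 of them then passed 2-fold, beside 7.77% of all genes lower and 9.74% higher. Of 9 RAB GAPs outside the TBC1D names, GRTP1 read 6.42 and 5.10 and was at least 2.43-fold lower. It was the only GAP of the 9 past 2-fold (11.1%, beside 9.80% of all genes lower and 7.46% higher). The median of the 9 was -0.07, or 0.04 with centring. With centring 1 GAP also passed 2-fold on the higher side, beside 9.74% of all genes. Of the 7 genes listed for GDI, escort and prenylation, 4 were named here and above the minimum. All 4 read lower, with differences of -0.41 to -1.30, beside 54.2% of all genes below zero. Of the 4, 1 was at least 2-fold lower (beside 9.80% of all genes) and 0 higher (beside 7.46%). RABGGTA, the alpha subunit of RAB geranylgeranyl transferase, read 10.32 and 9.02 and was 2.46-fold lower. GDI2, which recycles GDP-bound RABs, read 14.72 and 14.31, CHML, an escort protein, 9.76 and 9.12, and RABAC1, a RAB acceptor, 12.51 and 12.10. These 4 were also below zero after centring, beside 47.6% of all genes. Their median was then -0.42, and -0.53 without centring.

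The 32 RAB effectors above the minimum had a median difference of -0.045, and 0.065 with centring. In each direction 1 passed 2-fold (3.12%, beside 9.80% of all genes lower and 7.46% higher). With centring 4 of the 32 passed on the higher side and 1 on the lower, beside 9.74% and 7.77% of all genes. MICALL1, which binds RAB8, RAB13 and RAB35 on recycling tubules, read 8.34 and 9.60 and was 2.40-fold higher. APPL2, a RAB5 effector that is shared with adiponectin signalling, read 8.22 and 6.90 and was 2.50-fold lower, and its partner APPL1 read 9.50 and 8.51, just short of 2-fold. MICALL2, the RAB13 effector at tight junctions, differed by -0.59, and RAB13 itself by -1.48. Of the RAB11 effectors, MYO5B (0.94) and RAB11FIP5 (0.97) were higher by less than 2-fold as deposited. RAB11FIP2 differed by 0.53, RAB11FIP1 by 0.32 and RAB11FIP3 by -0.05, with RAB11A at -0.22. SYTL2, SYTL4 and EXPH5, which bind RAB27, differed by -0.11, -0.43 and 0.97.

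**Figure D4:**
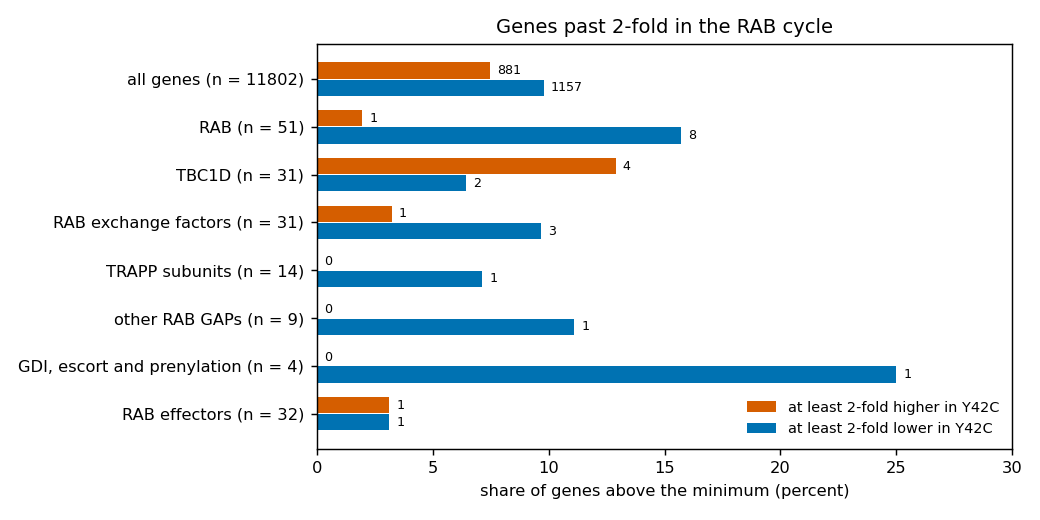
Share of genes above the minimum that were at least 2-fold higher (orange) or lower (blue) in the Y42C array, in percent, with the number of genes at each bar, for all genes, the members and the lists of other RAB cycle genes. For all genes the bars stand at 7.46% and 9.80%, for RAB genes at 1.96% and 15.7%, and for TBC1D genes at 12.9% and 6.45%.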

How the data were processed

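The table the authors deposited holds, for 21448 probe sets, a log2 signal on each array, from 2.23 to 18.16; that the scale is log2 was taken from this range. Per the submitters' processing notes, Affymetrix Expression Console made the values; how background, summary and normalization were handled is not given in the sources used here. In the platform annotation 17709 probe sets have 1 gene symbol, 0 have several and 3739 are unnamed here. All 95 members matched the RefSeq gene table by Entrez identifier, with 0 symbols changed, and each member has 1 probe set; for other genes the mean over probe sets was taken. Values were used as deposited. A fold whose dimmer value was under the minimum is given as a lower bound, computed against that minimum. Members and lists were chosen with earlier results of these data known. Genes of the lists without a named probe set were not analysed here. The rule named every member above the minimum, with full values for those past or near 2-fold, and list genes past 2-fold; other list genes and the motifs were chosen after values were seen. The array number limits the precision. The counting code was tested on simulated data, which gives no error rate for the real counts. Tools were NumPy 2.4.6 and pandas 2.3.3 under Python 3.11.15, with statsmodels 0.14.6 for the lowess trend and matplotlib 3.10.9 for plots.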

Additional observations from a re-analysis of the deposited data

How the results depend on the processing

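No paired analysis was possible because each group has 1 array. The values lack replicate error, and signal near the olfactory receptor background limits dim genes such as TBC1D10B, which differed by 0.49 once its wild-type value was raised to the minimum and by 0.74 with a constant of 16 added to the linear signal. The 8 lower RAB genes (15.7%, beside 9.80% of all genes) became 4 after centring (7.84%, beside 7.77%), 5 after removal of a lowess trend on level with span 0.3 (9.80%, beside 8.16%), 16 at 1.5-fold (31.4%, beside 23.4%) and 2 at 3-fold (3.92%, beside 1.99%). Higher RAB genes numbered 1 (1.96%, beside 7.46%), and 4 at 1.5-fold (7.84%, beside 17.8%). Higher TBC1D genes numbered 4 (12.9%, beside 7.46%), and 9 at 1.5-fold (29.0%, beside 17.8%) and 1 at 3-fold (3.23%, beside 2.20%). Lower TBC1D genes numbered 2 (6.45%, beside 9.80%). They numbered 1 (3.23%) under centring (beside 7.77%), quantile normalization (8.80%), trend removal (8.16%), the constant of 16 (8.04%) or the 3-fold threshold (1.99%). The RAB median of -0.22 was -0.11 with centring, and the TBC1D median of 0.26 was 0.37 with centring and 0.38 with trend removal. The cause was not tested. A median was called moved at a change of 0.1 or more. The sign of the median turned for TRAPP subunits with the mean (-0.026), for other RAB GAPs with centring (0.04) and trend removal (0.044), and for RAB effectors with centring (0.065), trend removal (0.013) and the mean (0.048). For the 15 members past 2-fold, the 5 settings that can change a difference gave 75 values, of which 58 passed 2-fold and 17 did not. That 0 changed sign carries no weight, because these members were chosen for a difference of 2-fold or more. The other minimums (90th and 99th percentile, array median, none) and the brightest probe set leave a member's difference as it is; TBC1D10B was below the 99th percentile and the array median on both arrays. Leaving out near-identical copies by protein identity was not run, since no protein table was used here. Leaving them out by name was chosen after seeing the data and gave a RAB median of -0.21 and a TBC1D median of 0.185.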
